A study of Arabidopsis thaliana with 6 samples.

Results

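The CP29 antenna protein of photosystem II is encoded by LHCB4.1 (AT5G01530), LHCB4.2 (AT3G08940) and LHCB4.3 (AT2G40100), and Rubisco activase by RCA (AT2G39730). Each of these 4 genes was read from the 1 probe set that names it, so they make up 4 of 22810 probe sets on the array. All 4 were bright enough to be tested. They were chosen with earlier results of these arrays known, in particular that LHCB4.3 had lower values in the mutants than its paralogues did. The difference between LHCB4.3 and its paralogues is therefore described and not tested.

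Total RNA of 3 week-old Arabidopsis thaliana was measured on 2 arrays of vip5 plants, 2 of vip6 plants and 2 of wild type (WT) plants. VIP5 and VIP6 encode the plant counterparts of Rtf1 and Ctr9, subunits of the Paf1 complex, which travels with RNA polymerase II and promotes histone modifications over transcribed genes. The labels give no allele, accession, tissue or growth light for any of the groups, and leave unsaid whether the 2 arrays of a genotype stand for separately grown plants. The p-values therefore reflect only how far such arrays differ, which may be technical variation. The mutant labels were not checked against VIP5 and VIP6, for which no named probe set was used here.

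CP29 is a chlorophyll-binding protein that sits between the photosystem II core and the larger, mobile antenna trimers and passes excitation energy on to the core. In Arabidopsis it is made from the LHCB4 genes. LHCB4.1 and LHCB4.2 are the widely used ones, and LHCB4.3, whose product differs at its end and has also been named LHCB8, is known for responding to light conditions. Rubisco activase acts after the light reactions. It uses ATP to free inhibitory sugar phosphates from the active sites of Rubisco, and its transcript is known to follow light and the clock in leaves.

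LHCB4.3 had intensities of 2061.1 and 3102.8 on the vip5 arrays and 2023.5 and 2569.1 on the vip6 arrays, against 5764.0 and 4104.6 on the WT arrays, for replicate numbers 1 and 2 in that order. All 4 mutant arrays lay below both WT arrays, and the vip5 and vip6 values overlapped. The means were 2582 ± 737 in vip5, 2296 ± 386 in vip6 and 4934 ± 1173 in WT (SD, n = 2 each), so the order was WT, vip5, vip6, with vip5 and vip6 closer to each other than their own spread.

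The limma log2 fold change of LHCB4.3 was -0.93 in vip5 against WT (standard error 0.27) and -1.08 in vip6 against WT (standard error 0.27). Neither passed the threshold of 0.05 after adjustment by the Benjamini-Hochberg method over 14323 tested probe sets, with limma adjusted p values of 0.289 in vip5 and 0.242 in vip6. With both mutants set against WT in 1 contrast of the same fit the log2 fold change was -1.01, with an unadjusted 95% interval from -1.55 to -0.46 and a limma adjusted p of 0.134. Over all tested probe sets, 11 passed in vip5 (0.0768%), 15 in vip6 (0.105%) and 51 in both mutants together (0.356%), and none of the 4 CP29 and RCA probe sets was among them. Values of 4 mutant arrays all below 2 WT arrays were seen in 13.2% of tested probe sets, so this property of LHCB4.3 is common on these arrays. In the contrast of both mutants, 0.719% of tested probe sets had a log2 fold change as low as that of LHCB4.3 or lower. Because LHCB4.3 was picked for its lower values on these same arrays, this share only describes its place and tests nothing. Without either WT array, the counts of 11, 15 and 51 were 0.

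**Figure D1:**
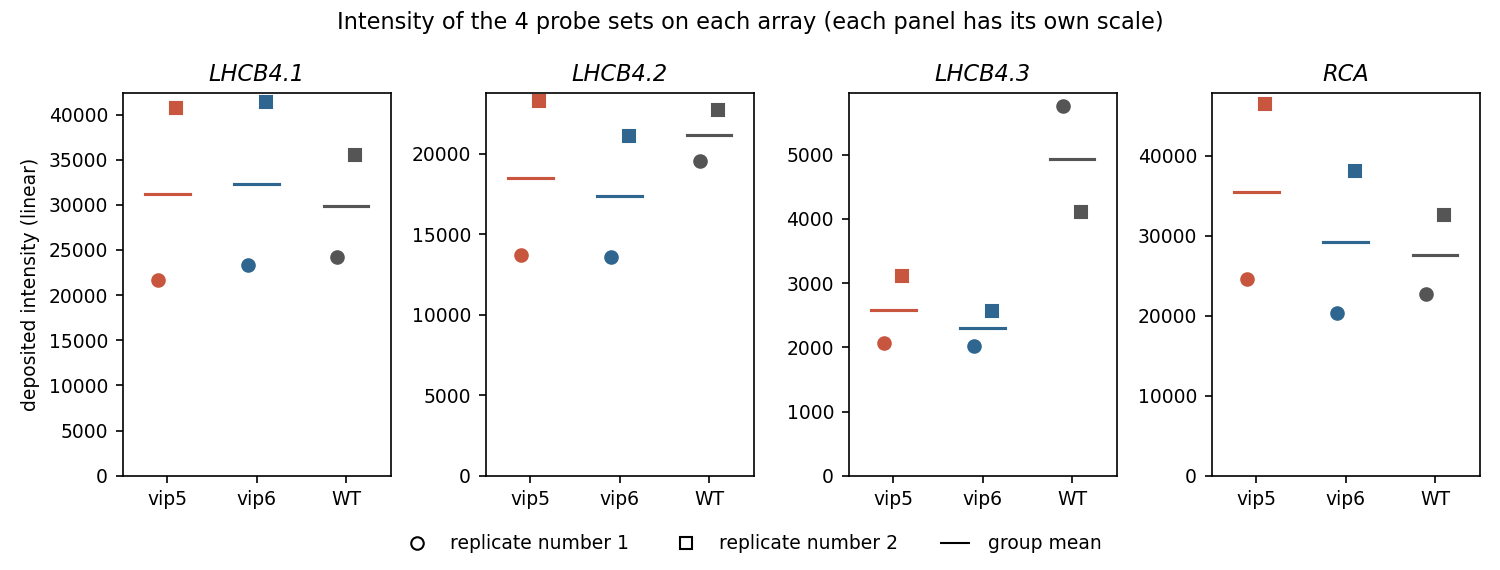
Deposited linear intensity of LHCB4.1, LHCB4.2, LHCB4.3 and RCA on each array, with vip5, vip6 and WT from left to right, circles for replicate number 1, squares for number 2 and a line at the mean of the 2 arrays. LHCB4.3 lies between 2023.5 and 3102.8 on the mutant arrays and at 4104.6 and 5764.0 on the WT arrays, while the other 3 genes overlap between groups and are brighter on number 2 in each group.

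In the deposited intensities the paralogues showed no such separation. LHCB4.1 had 21639.1 and 40704.0 on the vip5 arrays and 23368.6 and 41342.9 on the vip6 arrays, against 24233.9 and 35566.9 on the WT arrays. The mutant arrays spanned the WT arrays on both sides. Its log2 fold change was 0.02 in vip5 (limma adjusted p = 0.995) and 0.08 in vip6 (limma adjusted p = 0.974), each with a standard error of 0.38. The unadjusted 95% interval was -0.88 to 0.91 for vip5, and for vip6 it was -0.81 to 0.97. Both include changes nearly as large as that of LHCB4.3, so the 2 arrays a group do not show that LHCB4.1 stayed level.

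LHCB4.2 had 13726.5 and 23249.9 on the vip5 arrays and 13593.7 and 21110.8 on the vip6 arrays, against 19536.7 and 22736.4 on the WT arrays. The number 1 arrays of both mutants were the lowest, and vip5 number 2 was the highest of all 6. Its log2 fold change was -0.24 in vip5 and -0.31 in vip6 (standard error 0.31 for each), with limma adjusted p values of 0.839 and 0.812. Ranked within its array, LHCB4.2 stood at places 104 and 68 from the brightest in vip5 and 94 and 78 in vip6, against 41 and 51 in WT, so by rank all 4 mutant arrays were lower. After quantile normalization, which sets values by rank, its 4 mutant values likewise lay below both WT values, as did those of 12.4% of tested probe sets. The log2 fold change of LHCB4.2 in both mutants was then -0.36, and it did not pass (limma adjusted p = 0.385).

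RCA had 24526.6 and 46439.9 on the vip5 arrays and 20305.3 and 38063.0 on the vip6 arrays, against 22676.3 and 32585.0 on the WT arrays. Both vip5 values were above the WT value of the same number, and the groups overlapped. Its log2 fold change was 0.31 in vip5 (standard error 0.39, limma adjusted p = 0.833) and 0.03 in vip6 (standard error 0.39, limma adjusted p = 0.989). RCA stood at places 8 and 10 from the brightest in vip5 and 24 and 14 in vip6, against 23 and 16 in WT.

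LHCB4.3 was dimmer than its paralogues on each array but was not a dim probe set. Between 4.61% and 7.38% of probe sets were brighter than LHCB4.3 on the mutant arrays, and 2.06% and 3.36% were brighter on the WT arrays. Intensities of different probe sets also depend on the probes, so these values do not give the share of CP29 transcript that each gene supplies. Cross-hybridisation between the paralogues was not checked, and no saturation flag was used for the 3 brightest of these probe sets.

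To set the genes beside each other, each log2 value was centred on the WT mean of its own probe set, and only these changes were compared. LHCB4.3 changed by -1.22 and -0.64 in vip5 and by -1.25 and -0.91 in vip6, against 0.24 and -0.24 on the WT arrays. The mean change of LHCB4.1 and LHCB4.2 was -0.53 and 0.31 for vip5 and -0.48 and 0.25 for vip6, against -0.19 and 0.19 in WT. LHCB4.3 was thus below its paralogues by -0.69 and -0.95 in vip5 and by -0.77 and -1.16 in vip6, against 0.44 and -0.44 in WT. The 4 mutant values were the lowest of the 6, an order that the choice of LHCB4.3 for its lower mutant values favours. They averaged -0.82 in vip5 and -0.96 in vip6 (n = 2 each), and the SD of the WT arrays was 0.62 (n = 2). The nearest WT array, number 2, was 0.44 below the WT mean on this scale. The 2 paralogues were not alike. Over the mutant arrays LHCB4.3 averaged -1.06 against LHCB4.1 alone and -0.73 against LHCB4.2 alone. The change of LHCB4.2 minus that of LHCB4.1 was -0.18 and -0.33 in vip5 and -0.30 and -0.49 in vip6, against 0.17 and -0.17 in WT. LHCB4.2 thus stood lowest against LHCB4.1 on the mutant arrays too, with vip5 number 1 close to WT number 2.

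Taken against the WT array of the same number, the difference between LHCB4.3 and its paralogues was -1.13 and -0.51 in vip5 and -1.21 and -0.72 in vip6, for numbers 1 and 2. It was larger within number 1 in both mutants. After quantile normalization it was -1.23 and -0.26 for vip5 and -1.37 and -0.55 for vip6, so the vip5 value within number 2 was the one that shrank most. The change of LHCB4.3 alone followed the same order, with -1.47 and -0.40 for vip5 and -1.49 and -0.67 for vip6. The WT arrays themselves differed in LHCB4.3 by a ratio of 0.712 for number 2 over number 1, so the size of the change rests heavily on which WT array it is read against. Without WT replicate 1 the log2 fold change of LHCB4.3 in both mutants was -0.76, and without WT replicate 2 it was -1.25.

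**Figure D2:**
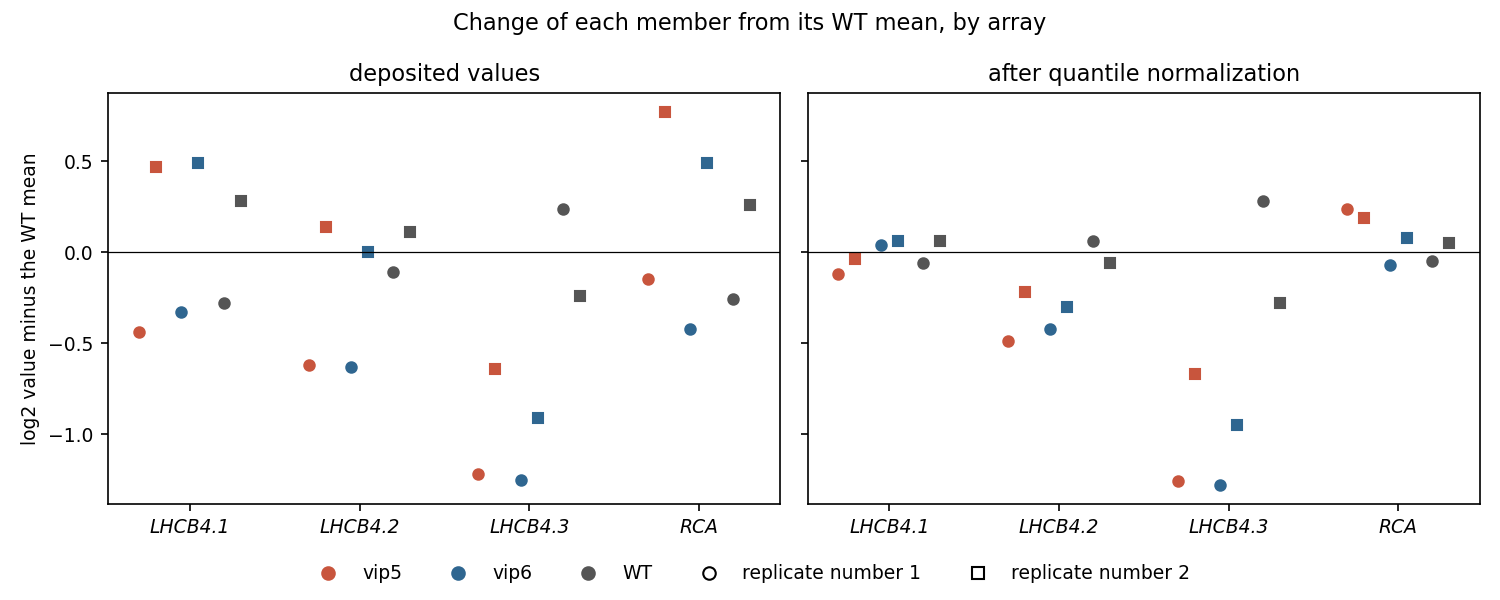
Log2 value of each gene minus its own WT mean, for vip5, vip6 and WT arrays from left to right within each gene, circles for number 1 and squares for number 2, from the deposited values (left panel) and after quantile normalization (right panel). LHCB4.3 is at -0.64 or lower on each mutant array in both panels, and the gap between number 1 and number 2 in LHCB4.1 and RCA, from -0.44 to 0.47 for LHCB4.1 in vip5, shrinks to -0.12 and -0.04 after quantile normalization.

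The replicate number separated the arrays in the bright genes. For LHCB4.1 the intensity on number 2 was 1.88 times that on number 1 in vip5 and 1.77 times in vip6, against 1.47 times in WT. RCA gave ratios of 1.89 in vip5 and 1.87 in vip6, against 1.44 in WT, and LHCB4.2 gave 1.69 and 1.55, against 1.16. The 100 brightest tested probe sets moved alike, with median ratios of 1.66 in vip5 and 1.58 in vip6, against 1.29 in WT, while the median over all tested probe sets was 0.992, 0.988 and 1.02. LHCB4.3 was the only one of the 4 with a ratio under 1 in WT (0.712) and over 1 in the mutants (1.51 in vip5 and 1.27 in vip6).

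**Figure D3:**
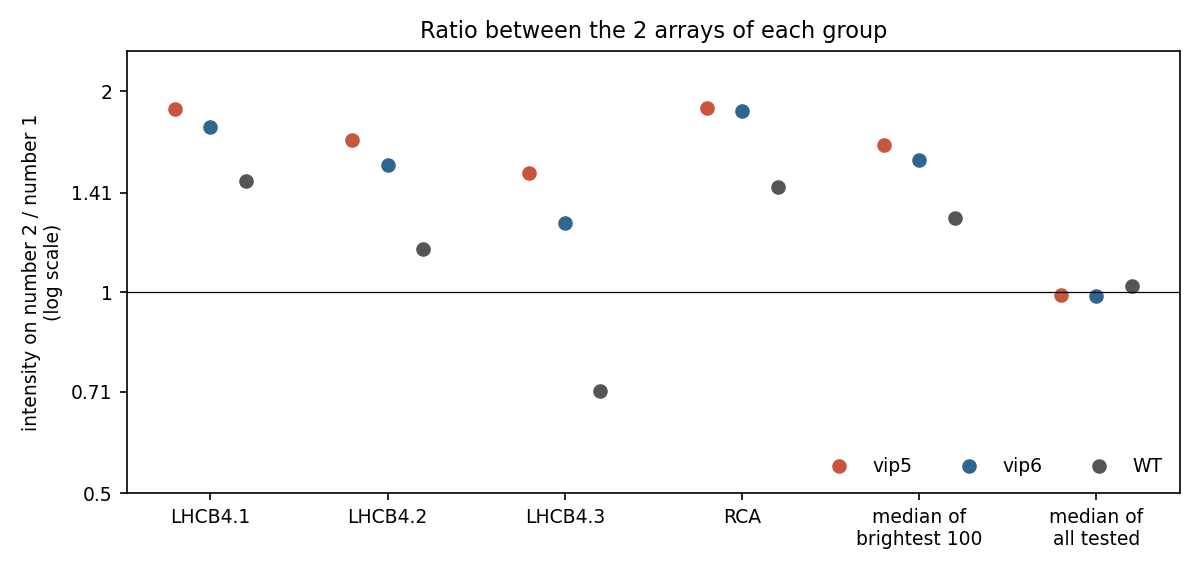
Intensity on replicate number 2 divided by that on number 1, on a log scale, within vip5, vip6 and WT for the 4 genes, beside the median ratio of the 100 brightest and of all tested probe sets. The medians of all tested probe sets lie near 1, those of the brightest 100 between 1.29 and 1.66, and the WT ratio of LHCB4.3 at 0.712.

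The added hybridisation controls (bioB, bioC, bioD and cre) were also brighter on number 2, by a factor of 2.45 to 4.77 in vip5 and of 2.3 to 3.24 in vip6, against 1.4 to 2.09 in WT. GIGANTEA (GI), a clock and photoperiod gene, differed by number in the mutants, with 1331.5 and 473.8 in vip5 and 1251.5 and 544.9 in vip6, against 623.8 and 770.3 in WT. The labels do not say what the number marks, and the part of these differences in the LHCB4 and RCA values was not tested.

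The mutants were then set against each other. LHCB4.3 averaged 2296 ± 386 in vip6 and 2582 ± 737 in vip5 (SD, n = 2 each), a log2 difference, vip6 minus vip5, of -0.15 with an unadjusted 95% interval from -0.78 to 0.48. For LHCB4.1 the log2 difference was 0.07 (from -0.82 to 0.96), for LHCB4.2 it was -0.08 (from -0.80 to 0.64), and for RCA it was -0.28 (from -1.20 to 0.64). The limma adjusted p was 1 for each. No probe set passed in this comparison with limma (0 of 14323, or 0%), 220 had an unadjusted p below 0.05, and these intervals leave room for differences of about the size seen between mutant and WT. RCA set against LHCB4.1 within each array, both centred on their WT means, stood at -0.09 and -0.01 in vip6 and at 0.29 and 0.30 in vip5, against 0.02 and -0.02 in WT. The mutants did not overlap in this ratio, which was picked out after the values were seen and has no test. How many other ratios separate the mutants was not counted, so with 2 arrays each the separation carries no weight.

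Other nuclear genes of photosynthesis were read from fixed lists, since LHCB4 and RCA products work beside them. The antenna list held no other gene with a named probe set than the 3 LHCB4 genes, and the list for antenna insertion, phosphorylation and control held none. The remaining lists gave 12 tested genes, and 0 of 12 passed the limma test for either mutant or for both together. In each of these comparisons, 0 of 12 had an unadjusted p below 0.05. Of all 14323 tested probe sets, 0.0768% passed in vip5, 0.105% in vip6 and 0.356% for both mutants. An unadjusted limma p below 0.05 was seen in 1567, 1415 and 1874 of the 14323. At such shares, 12 genes are too few for these counts to show that the genes stayed level. Their median log2 fold change was 0.03 in both mutants against WT, beside -0.01 over all tested probe sets, and 6 of 12 were below 0.

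Among photosystem subunits, PSBY, a small photosystem II protein, had 19558.4 and 39839.7 on the vip5 arrays and 21336.5 and 32352.7 on the vip6 arrays, against 19487.2 and 23818.5 on the WT arrays. Its groups overlapped, with a log2 fold change of 0.37 in vip5 and 0.29 in vip6. PSAE-1, which helps ferredoxin dock on photosystem I, had 23061.3 and 39322.8 on the vip5 arrays and 22678.6 and 39705.2 on the vip6 arrays, against 22810.4 and 30494.3 on the WT arrays. The log2 fold change of PSAE-1 was 0.19 in each mutant. PSAN, a lumenal subunit of photosystem I, stood at -0.09 in vip5 and -0.20 in vip6. PSBW, a small photosystem II subunit, had -0.13 and -0.01.

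For electron transport, the list's tested gene was PGRL1B, whose product acts in cyclic electron flow around photosystem I. It had 767.6 and 855.9 on the vip5 arrays and 764.4 and 844.2 on the vip6 arrays, against 663.9 and 685.0 on the WT arrays. All 4 mutant arrays of PGRL1B lay above both WT arrays, as in 12.5% of tested probe sets, with log2 fold changes of 0.25 in vip5 and 0.24 in vip6 and a limma adjusted p of 0.555 for both mutants together.

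The carbon fixation genes act in the cycle that Rubisco starts. SBPASE, a phosphatase that helps regenerate the Rubisco substrate, had 12289.2 and 21667.0 on the vip5 arrays and 11401.3 and 19318.8 on the vip6 arrays, against 12728.9 and 12898.2 on the WT arrays. In SBPASE, number 2 of each mutant was above both WT arrays and number 1 below both. PRK, phosphoribulokinase, which makes the Rubisco substrate, had log2 fold changes of -0.01 in vip5 and -0.03 in vip6. The phosphoglycerate kinase gene AT1G56190 had 0.10 and -0.10.

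Of the chlorophyll synthesis genes, PORB, the light-dependent protochlorophyllide reductase, had 8051.5 and 3819.8 on the vip5 arrays and 8255.8 and 5006.6 on the vip6 arrays, against 7342.3 and 8641.5 on the WT arrays. The number 2 arrays of both mutants were the lowest for PORB, and its log2 fold change was -0.52 in vip5 and -0.31 in vip6. GSA1, an aminotransferase early in the pathway, had -0.49 and -0.20. CHLM, a methyltransferase of the magnesium branch, had 0.39 and 0.16, and CHLI2, a magnesium chelatase subunit, had 0.11 and 0.03. The lowest limma adjusted p over these 12 genes was 0.491 in vip5 and 0.724 in vip6.

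**Figure D4:**
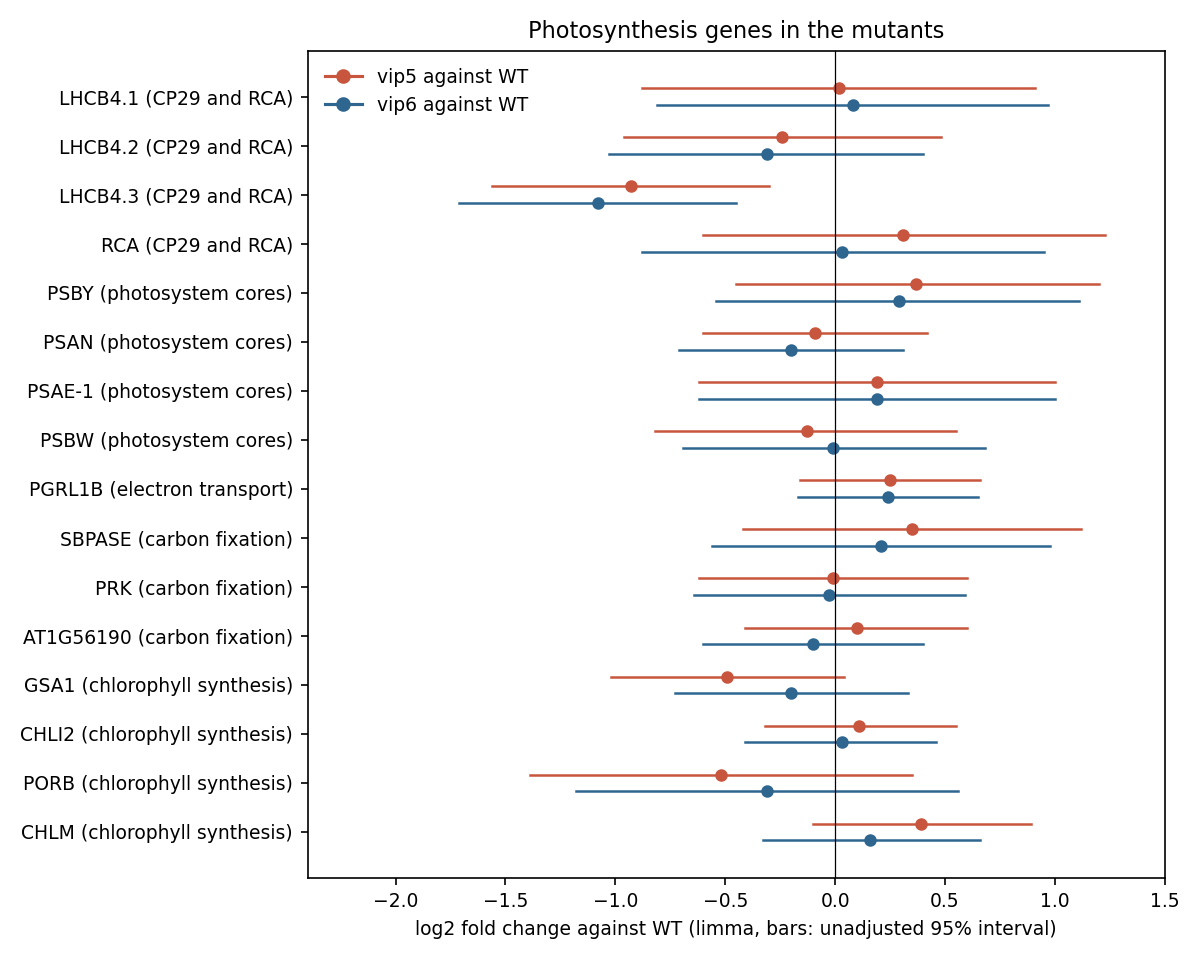
Limma log2 fold change against WT in vip5 (upper point of each pair) and vip6 (lower point) for LHCB4.1, LHCB4.2, LHCB4.3, RCA and the 12 other tested photosynthesis genes, with unadjusted 95% intervals. The intervals of LHCB4.3 run from -1.56 to -0.30 for vip5 and -1.71 to -0.45 for vip6. They carry no adjustment for multiple tests, LHCB4.3 was picked for its lower mutant values, and none of the 16 genes passed the adjusted test.

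Markers of other tissues and of leaf ageing were few. The senescence genes SAG101 and WRKY53 had log2 fold changes of 0.39 and -0.10 in both mutants against WT, and the summed intensity of the 2 lay between 214 and 316 on the mutant arrays, against 151 and 394 on the WT arrays. The anther gene AT5G07230 lay between 143.7 and 199.0 in the mutants, against 159.9 and 162.7 in WT. The root hair expansins EXPA7 and EXPA18, the 2 named root genes, were too dim to be tested. EXPA7 had 15.2 and 6.9 on the vip5 arrays and 10.7 and 10.3 on the vip6 arrays, against 51.1 and 33.0 on the WT arrays. Its mutant values were lower than both WT values, but they lay under the pseudocount of 39.35, near the floor. How many other probe sets too dim to be tested share this order was not counted. EXPA18 lay between 27.2 and 78.7 in the mutants, against 53.6 and 103.7 in WT, and overlapped. In RNA from whole plants or mixed tissue, fewer cells of a type and less RNA per cell cannot be told apart, and the part of tissue makeup in the LHCB4.3 values was not tested.

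The genes with the profile nearest to LHCB4.3 were found among the other 7675 tested probe sets that name 1 gene, by the Euclidean distance between log2 values centred on their mean over the 6 arrays. AT5G48540 was nearest, at a distance of 0.29, with 137.9 and 198.0 in vip5 and 130.0 and 205.7 in vip6, against 444.8 and 262.8 in WT. AT4G01460 followed at 0.36, and CHX20, a cation/H+ exchanger gene, at 0.37. THI2.1, a thionin of the antimicrobial kind, and AT3G46490 were both at 0.43. The Pearson correlations of these 5 with LHCB4.3 over the 6 arrays were 0.954 to 0.980, given as a description since the genes were picked for likeness. None of the 5 is on the photosynthesis lists. Those lists hold only 12 other tested genes, so their absence from the nearest 5 of 7675 says little. Their log2 fold changes in both mutants against WT were between -1.05 and -0.79, and none passed the limma test.

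**Figure D5:**
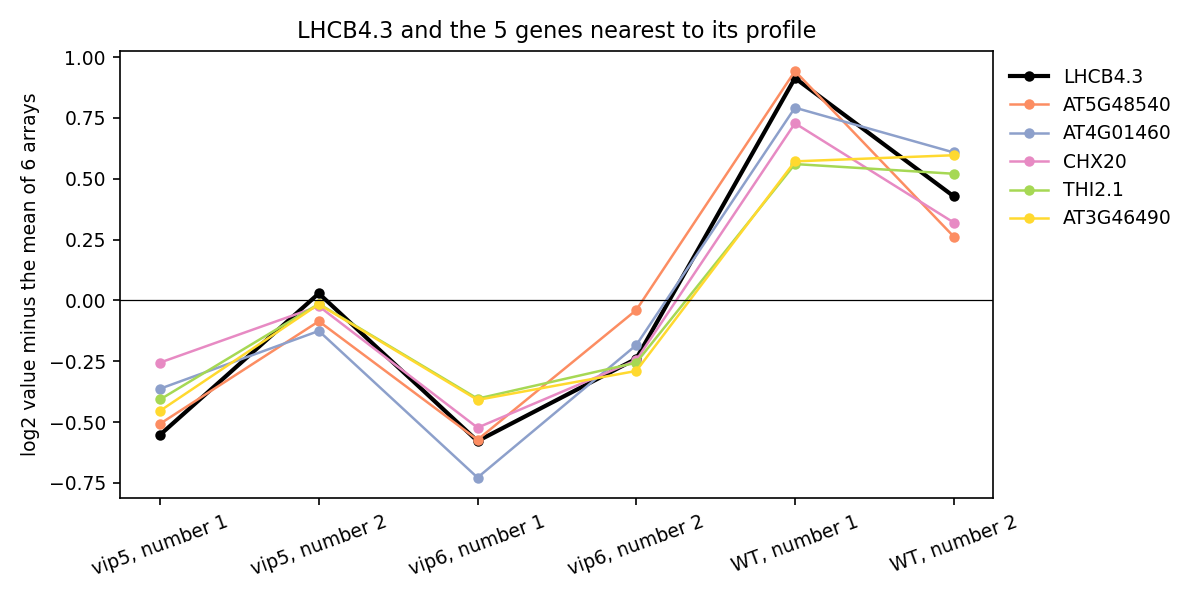
Log2 value minus the mean of the 6 arrays for LHCB4.3 (black) and its 5 nearest genes, with the vip5, vip6 and WT arrays from left to right. All 6 genes are highest on the WT arrays, an order that the choice of the 5 for likeness to LHCB4.3 favours and that 13.2% of tested probe sets show. Like LHCB4.3, AT5G48540, at a distance of 0.29, AT4G01460, CHX20 and, slightly, THI2.1 are lower on WT number 2 than on WT number 1. AT3G46490 is not.

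The other members had other neighbours. LHCB4.1 was nearest to FaTA, an acyl-ACP thioesterase gene of fatty acid synthesis, and to PSAE-1, each at 0.22, and to the geranylgeranyl reductase gene AT1G74470 at 0.23, which supplies the phytol chain of chlorophyll. RCA was nearest to atpB, the chloroplast gene for an ATP synthase subunit, at 0.10, then to AT4G01150, the CURT1A gene of thylakoid curvature, at 0.18, and AT1G66330 at 0.22. LHCB4.2 was nearest to AT1G01830 and RALFL34, a peptide hormone gene, each at 0.15, and to AT1G15060 at 0.16. All of these neighbours were brighter on number 2 than on number 1 in each group. For atpB the ratios were 1.91 in vip5, 1.78 in vip6 and 1.52 in WT, beside 1.89, 1.87 and 1.44 for RCA. The 100 brightest tested probe sets moved the same way, and the part of the replicate number in these likenesses was not tested. LHCB4.1 and RCA were 0.38 apart and LHCB4.1 and LHCB4.2 0.50 apart. LHCB4.3 lay 1.5 from LHCB4.1, 1.01 from LHCB4.2 and 1.61 from RCA. Of 7675 probe sets, 6792 were nearer to LHCB4.1 than LHCB4.3 was, and 4659 were nearer to LHCB4.2 than LHCB4.3 was. Because LHCB4.3 was picked for differing from these paralogues on the same arrays, its distances and these counts are a description and test nothing.

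RCA and LHCB4.3 lie on the same chromosome, with 54 annotated genes between them. Within 5 genes on either side of LHCB4.3, the genes with a tested, named probe set were AT2G40110 and AT2G40120. The adjoining AT2G40110 had 252.8 and 314.7 on the vip5 arrays and 316.1 and 232.7 on the vip6 arrays, against 286.3 and 202.4 on the WT arrays, and its groups overlapped. The log2 fold changes in both mutants against WT were 0.17 for AT2G40110 (limma adjusted p = 0.785) and 0.21 for AT2G40120 (limma adjusted p = 0.645), so neither shared the lower mutant values of LHCB4.3.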

How the data were processed

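The authors deposited 1 linear intensity value per probe set and array. The software, background correction and detection calls are not given in the sources used here. Array means taken without the outer 2% at each end differed by at most 0.214%, which shows that the deposited values were already scaled between arrays, so no further normalization was applied. Groups and replicate numbers came from the sample titles. A pseudocount of 39.35, the median of the 6 arrays' 25th percentiles, was added before taking log2 for the tests. This scale understates changes of dim probe sets. After 64 controls were left out, 14323 of 22746 probe sets lay above the 40th percentile on at least 2 of 6 arrays and were tested with limma 3.58.1 in R 4.3.3, with 1 mean per group over all 6 arrays, 3 residual degrees of freedom, two-sided, adjusted over all tested probe sets. SDs are of the intensities. The model was also run on simulated arrays with independent noise, which lacked the shared differences by replicate number seen here, so that run does not cover them.

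Names came from the platform annotation matched by gene identifier to TAIR10.1, where 13513 probe sets name 1 gene, 503 several and 8794 are not listed, and 13436 matched a locus. The members and the lists of photosynthesis, clock, senescence and tissue genes were chosen with earlier results of these data known. The text names all tested genes of those lists, the 5 genes nearest to LHCB4.3 and the 3 nearest to each other member, and the tested neighbours of LHCB4.3, which were added later. Alternatives covered quantile normalization, the pseudocount, the filter, an intensity trend, the arrays fitted, the replicate block and each array left out. The number of arrays limits the precision. Plots used matplotlib 3.10.9 with Python 3.11.15. No sequences were used here.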

Additional observations from a re-analysis of the deposited data

How the results depend on the processing

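LHCB4.3 kept its direction against WT under all alternatives run. This was largely fixed beforehand, since all 4 mutant values lay below both WT values, so leaving out 1 array could not reverse it. The filter, the intensity trend, the replicate block and the groups fitted left the estimate itself unchanged. With both arrays of each fitted group kept, the limma adjusted p of LHCB4.3 was 0.102 to 0.42 in vip5, 0.0743 to 0.395 in vip6 and 0.0395 to 0.244 for both mutants together. With 1 array left out its log2 fold change lay between -1.22 and -0.64 in vip5, -1.32 and -0.84 in vip6 and -1.25 and -0.76 for both mutants. Leaving out 1 array moved LHCB4.1 between -0.44 and 0.47 in vip5, -0.33 and 0.49 in vip6 and -0.23 and 0.33 for both mutants. It moved LHCB4.2 between -0.62 and 0.14 in vip5 and, in vip6, between -0.63 and 0.00. It moved RCA between -0.15 and 0.77 in vip5, -0.42 and 0.49 in vip6 and -0.09 and 0.43 for both mutants. For vip6 against vip5 the ranges were -0.39 to 0.52 for LHCB4.1, -0.46 to 0.30 for LHCB4.2, -0.44 to 0.14 for LHCB4.3 and -0.74 to 0.18 for RCA. After quantile normalization LHCB4.1 was at -0.08 in vip5 and -0.02 for both mutants, and LHCB4.2 at 0.00 for vip6 against vip5, with or without the replicate block. None of the 4 genes passed under any of these except LHCB4.3 for both mutants with the replicate block.

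The labels do not say what the replicate numbers mark. The differences between numbers 2 and 1 correlated over tested probe sets at 0.306 between vip5 and WT, 0.308 between vip6 and WT and 0.655 between vip6 and vip5, and 2 numbers cannot establish a pairing. With the replicate block LHCB4.3 stayed at -1.01 for both mutants and its limma adjusted p was 0.0395, and after quantile normalization with the replicate block it was 0.0542, an alternative chosen after seeing the data. The replicate block took the counts of probe sets that passed to 313 in vip5, 253 in vip6, 582 for both mutants and 1 for vip6 against vip5, and to 266, 174, 499 and 0 with quantile normalization as well. The 11 in vip5 became 4 with a pseudocount of 10, 2 with no filter, 18 with only the compared groups fitted and 0 to 18 without 1 array. The 15 in vip6 became 24, 1 and 5 under the same settings and 0 to 5 without 1 array. The 51 for both mutants became 2 with no filter, 22 with the stricter filter and 0 to 29 without 1 array. Without vip5 replicate 1 and then 2 the counts were 1 and 0 in vip5, 5 and 5 in vip6, and 24 and 17 for both mutants. Without vip6 replicate 1 and then 2 they were 18 and 18, 0 and 0, and 22 and 29, and without either WT array they were 0. A lone array left in a group was assumed to vary like the other groups. The cause was not tested.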
